A study of Bos taurus with 6 samples.

Results

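The insulin-like growth factor (IGF) system of bovine cumulus cells is described here from 10 genes: the ligand gene IGF1, the receptor genes IGF1R and IGF2R, the binding protein genes IGFBP1, IGFBP2, IGFBP3, IGFBP4, IGFBP5 and IGFBP6, and the protease gene PAPPA. They were chosen by gene symbol, and all 10 had a probe set with that single symbol, 17 probe sets of 24016 tested and 10 genes of 9155 named on the array. Cumulus cells, the somatic envelope of the oocyte, had been stripped from cumulus-oocyte complexes of slaughtered crossbred cows (Bos indicus x Bos taurus), and RNA of pooled cells was hybridised to 1 array per pool. Large follicles, 8 mm or more across and holding complexes that the submitters call competent, gave 3 arrays, and small follicles of 1 to 3 mm (incompetent) gave the other 3. The comparison asks which transcripts differ with follicle size, which the study uses as a model of the capacity of the oocyte to become a blastocyst. Nothing else was varied between the groups per the labels. Complexes of both groups were kept only with an even granulated cytoplasm and a compact cumulus of several layers. The labels do not say how old the cows were or how many cows or complexes made up a pool, so each p-value reflects how far these pools spread.

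IGF1 and IGF2 act through the tyrosine kinase receptor IGF1R. IGF2R, the cation-independent mannose 6-phosphate receptor, carries IGF2 to lysosomes, and the binding proteins hold IGFs in the extracellular fluid and set how much of them reaches IGF1R. PAPPA, secreted by granulosa cells, cleaves IGFBP4 and IGFBP5 and so frees IGF, and in the follicle IGF signalling acts together with follicle-stimulating hormone on growth and steroid production of granulosa cells.

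All values are log2 signals of probe sets, groups of probes aimed at 1 or more transcripts of a gene, and a difference of 1 is 2-fold. Granulosa and cumulus markers were bright: the mean of the 11 measured was between 10.90 and 11.04 in large-follicle arrays and between 10.34 and 10.50 in small-follicle arrays, and 6 of them rose and 1 fell. The 6 measured oocyte markers averaged 3.67 to 3.74 in large-follicle arrays and 3.55 to 3.83 in small-follicle arrays, about the lower quartile of all probe set means (3.83). Leukocyte markers (13 measured, 2 higher, 0 lower) averaged 5.30, 4.68 and 4.46 in large-follicle arrays 1 to 3, against 4.30, 4.23 and 4.71 in small-follicle arrays (difference 0.40, exact permutation test, 2-sided, p = 0.3). All 13 had a positive difference, from 0.02 to 1.02. LCP1 (0.89, adjusted p = 0.0457 by limma) and CORO1A (0.62, adjusted p = 0.0371) were the called ones. The leukocyte antigen PTPRC was at 3.43 to 3.83 against 3.28 to 3.60. The 3'-minus-5' index, a sign of RNA quality averaged over 6 control transcripts, was 1.98 ± 0.19 in large-follicle arrays and 2.46 ± 0.27 in small-follicle arrays (SD, n = 3 each), with p = 0.1 by the 2-sided exact permutation test, which 3 against 3 arrays cannot go below. Its values did not overlap, with 1.77 to 2.15 in large-follicle and 2.16 to 2.68 in small-follicle arrays. A fit with the index as a covariate thus cannot tell RNA quality and follicle size apart. Smooth muscle markers (5 measured, 2 higher, 0 lower) averaged 6.66, 7.02 and 7.07 in large-follicle arrays, against 6.31, 6.27 and 6.44 in small-follicle arrays, without overlap. TAGLN (1.67, adjusted p = 0.0152 by limma) and CNN1 (0.66, adjusted p = 0.00417) were the called ones, while MYH11 read -0.39 and did not pass. The part of these cells in the IGF system differences was not tested. In such pools more cells of a type and more RNA per cell cannot be told apart.

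Of the IGF system, IGFBP4 was higher and IGF2R lower in cumulus cells of large follicles. IGFBP4 was 3.47-fold higher and IGF2R 1.33-fold lower. IGF2R was called at its brighter probe set only and lost that call in 9 of 18 alternative settings, while IGFBP4 kept its call in all 18. The other 8 genes did not pass the test, and for IGFBP2, IGFBP3 and IGFBP5 single pools lay far from the rest of their group. By limma, with p-values adjusted (Benjamini-Hochberg) over all 24016 probe sets and a threshold of 0.05, 1 of the 17 probe sets was called higher, where 5.72% of all probe sets were, and 1 lower, where 7.16% were. Together that is 11.8% of the 17 against 12.9% of all, a share near the background. The large-follicle and small-follicle arrays did not overlap in 6 of the 17 (35.3%), against 30.9% of all probe sets. An unadjusted p under 0.05 was found in 5 of the 17, against 27% of all probe sets, again near the background. The median difference was 0.10 over the 17 and 0.01 over all probe sets, and the median size 0.29 and 0.15.

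**Figure D1:**
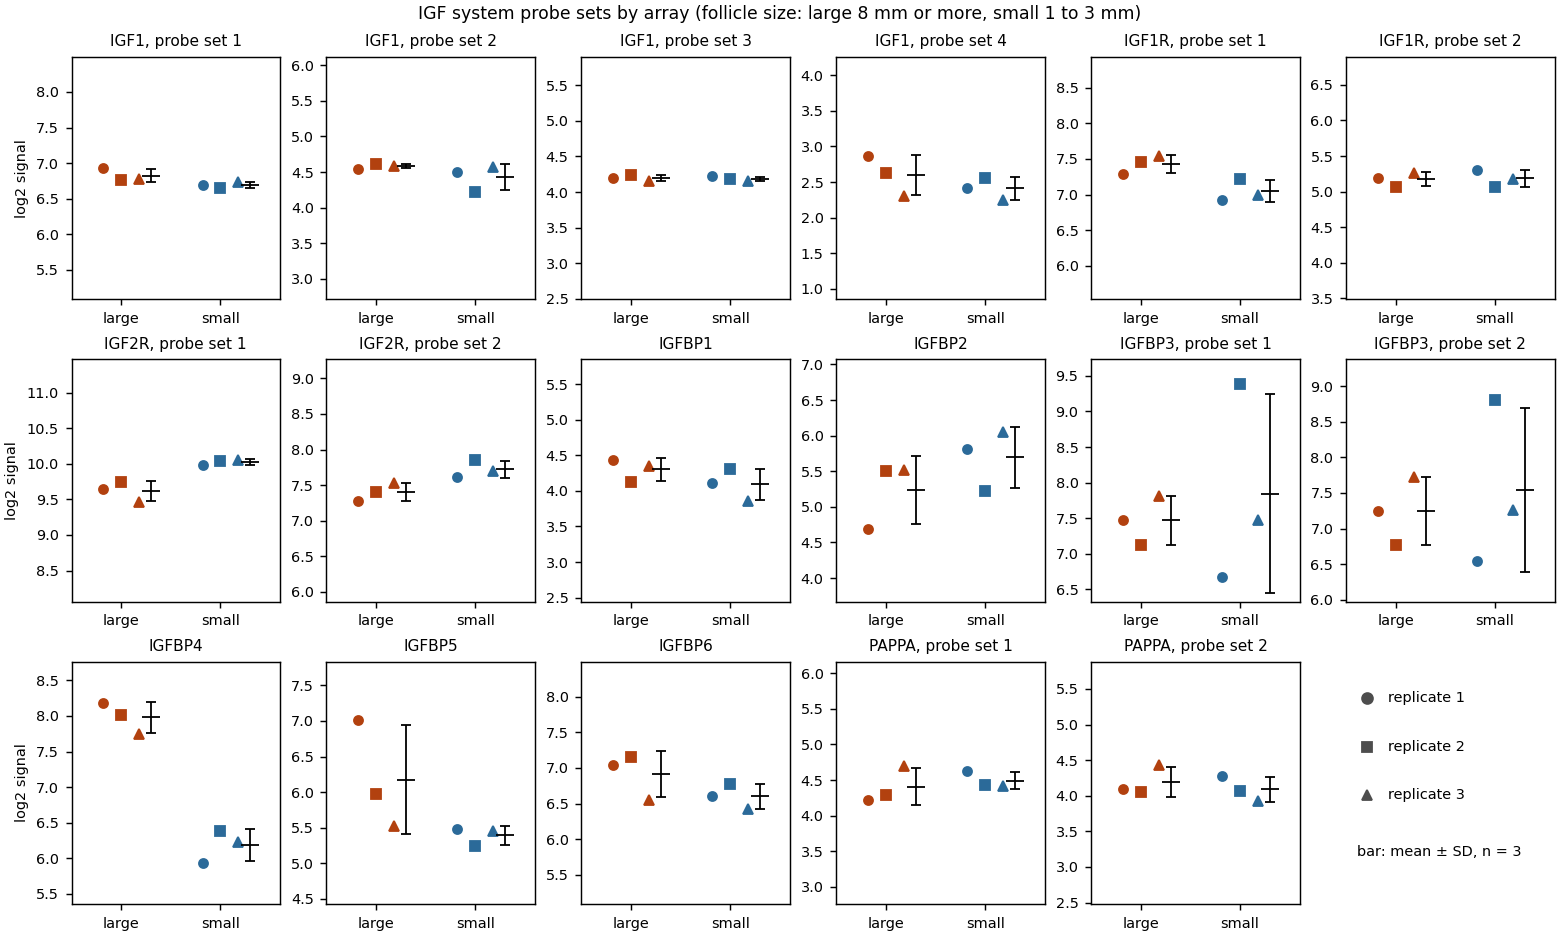
Log2 signal (vertical axis) of the 17 probe sets of the IGF system in the 3 large-follicle arrays (left, orange) and the 3 small-follicle arrays (right, blue). Marker shape gives the replicate and a bar the mean ± SD. Each panel spans the same number of log2 units but is centred on its own values, so levels are read from each axis. Probe sets of a gene are numbered from the brightest. The groups stand clearly apart for IGFBP4, with large-follicle arrays at 7.75 to 8.18 and small-follicle arrays at 5.94 to 6.38, while for IGFBP3 and IGFBP5 1 array lies far above the others of its group.

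The ligand gene IGF1 was read by 4 probe sets, and by limma 0 of them passed or had an unadjusted p under 0.05. IGF1 is a growth factor made by many tissues, with the liver as the main source of the circulating form. At the brightest probe set it read 6.93, 6.77 and 6.78 in large-follicle arrays, against 6.70, 6.65 and 6.74 in small-follicle arrays. The groups did not overlap there, but lay close together, and the difference was 0.13 ± 0.09 (SE), with a 95% interval of -0.09 to 0.35. The other 3 probe sets read differences of 0.15, 0.01 and 0.19, and all 3 had overlapping groups. The dimmest averaged 2.60 in large-follicle arrays and 2.41 in small-follicle arrays, so it lies in the range under the lower quartile and carries little signal. The other ligand, IGF2, is no member but belongs to the pathway, and it had 4 probe sets with none called. Its brightest read 6.59, 5.48 and 5.78 in large-follicle arrays, against 5.49, 5.41 and 5.51 in small-follicle arrays. Large-follicle replicate 1 stood well above the rest, and the difference of 0.48 ± 0.25 did not pass (adjusted p = 0.262 by limma). That array had the highest leukocyte (5.30) and theca (7.79) marker means, and the part of these cells in its IGF2 value was not tested.

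The receptor IGF1R, through which both ligands signal, gave different readings at its 2 probe sets. The brighter one read 7.29, 7.45 and 7.54 in large-follicle arrays, against 6.92, 7.22 and 7.00 in small-follicle arrays. Every large-follicle array was above every small-follicle array, by a small step between 7.29 and 7.22. The difference of 0.38 ± 0.12 did not pass (adjusted p = 0.0718 by limma; 95% interval 0.11 to 0.65). It did pass among probe sets brighter than the median (adjusted p = 0.0429) and after quantile scaling (adjusted p = 0.0473). It did not pass with array weights (0.28, adjusted p = 0.137) or the replicate block (adjusted p = 0.106). Nor did it pass with the 3'-minus-5' index (0.32, adjusted p = 0.394) or the leukocyte mean (0.49, adjusted p = 0.0829) fitted. With 1 array left out the adjusted p was 0.0705 to 0.192. The dimmer one read 5.07 to 5.26 in large-follicle arrays and 5.07 to 5.31 in small-follicle arrays, a difference of -0.01 with a 95% interval of -0.25 to 0.23.

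IGF2R, which clears IGF2 and sorts lysosomal enzymes, fell at its brighter probe set. It read 9.64, 9.75 and 9.47 in large-follicle arrays, against 9.98, 10.04 and 10.06 in small-follicle arrays. The groups did not overlap, and the small-follicle arrays lay within 0.08 of each other. The mean was 9.62 ± 0.14 in large-follicle arrays and 10.03 ± 0.04 in small-follicle arrays (SD, n = 3 each), a difference of -0.41 ± 0.10 (SE; adjusted p = 0.0372 by limma). The second probe set read 7.28, 7.41 and 7.53 in large-follicle arrays, against 7.61, 7.85 and 7.70 in small-follicle arrays. It also had no overlap between the groups, but its difference of -0.31 ± 0.11 did not pass (adjusted p = 0.107), except with array weights (-0.39, adjusted p = 0.0377). The IGF2R call stood close to the threshold: it was lost when large-follicle replicate 1 (-0.42, adjusted p = 0.0976) or 3 (-0.33, adjusted p = 0.0919) was left out. The same held for small-follicle replicates 1 (-0.43, adjusted p = 0.0777), 2 (-0.40, adjusted p = 0.115) and 3 (-0.39, adjusted p = 0.0912), while leaving out large-follicle replicate 2 kept the call (-0.47, adjusted p = 0.0441). With the 3'-minus-5' index fitted as a covariate it was -0.51 (adjusted p = 0.152), and with the leukocyte marker mean fitted it was -0.45 (adjusted p = 0.0987), and the call was lost in both fits (SE 0.16 and 0.13, against 0.10 without a covariate).

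**Figure D2:**
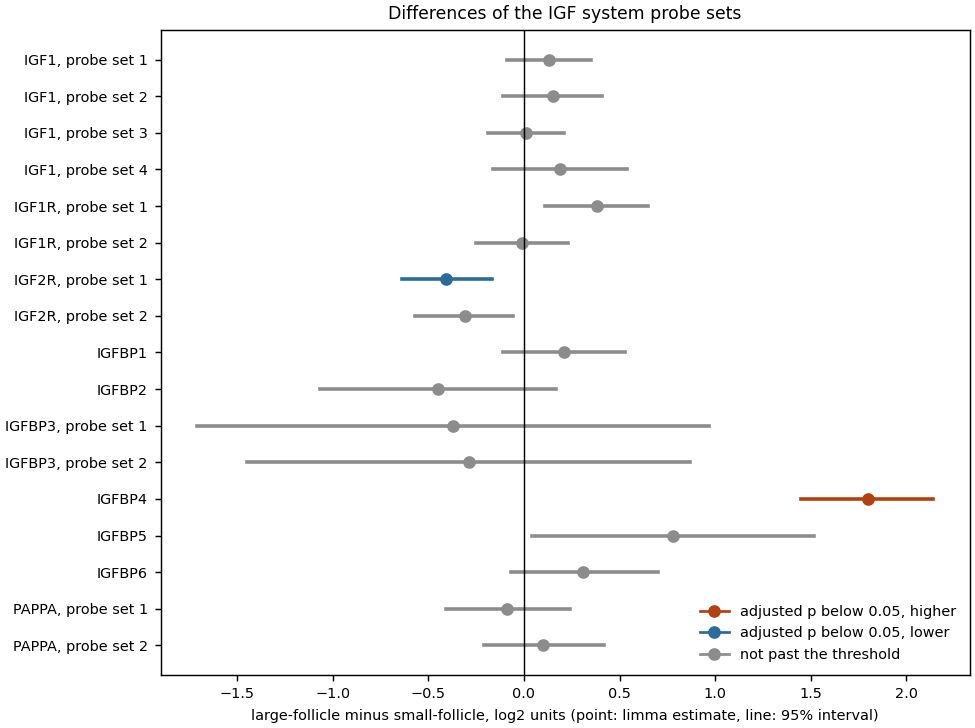
Large-follicle minus small-follicle difference in log2 units (horizontal axis) of the 17 probe sets, with the 95% interval of the limma fit as a line. IGFBP4 at 1.80 lies far to the right of the other 16, IGF2R at -0.41 is the 1 probe set called lower, and the intervals of IGFBP3 are the widest.

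IGFBP4, a binding protein that restrains IGF action and is the classic substrate of PAPPA, was the member with the largest difference. It read 8.18, 8.01 and 7.75 in large-follicle arrays, against 5.94, 6.38 and 6.23 in small-follicle arrays. The lowest large-follicle array was more than 1 log2 unit above the highest small-follicle array, and the 2 groups had the same spread. The mean was 7.98 ± 0.22 in large-follicle arrays and 6.18 ± 0.22 in small-follicle arrays (SD, n = 3 each), a difference of 1.80 ± 0.15 (SE), with a 95% interval of 1.45 to 2.14 (adjusted p = 0.000918 by limma). Of all 24016 probe sets, 51 had a larger increase, and 0.354% a larger difference in either direction. The call held in every setting tried, with differences from 1.66 to 1.91: without any 1 array the adjusted p was at most 0.00537, with the leukocyte marker mean as a covariate the difference was 1.66 (adjusted p = 0.00759), and with the index 1.73 (adjusted p = 0.0458). The smooth muscle marker mean was higher in the same 3 arrays, and within them it was lowest (6.66) in replicate 1, where IGFBP4 was highest. Other marker means fell in replicate order in large-follicle arrays, as IGFBP4 did. They were those of theca (7.79, 7.36 and 7.14), leukocytes (5.30, 4.68 and 4.46) and fibroblasts and stroma (6.85, 6.29 and 6.07). Their single markers did not all fall in that order. The theca marker STAR did (6.92, 5.68 and 4.94), while INSL3 (9.29, 9.60 and 9.35) and CYP17A1 (5.38, 4.61 and 4.76) did not. Nor did the leukocyte marker ITGB2 (4.44, 4.51 and 4.25) or the stroma marker COL1A1 (6.52, 5.99 and 6.69). The marker means of these cells overlapped those of the small-follicle arrays. The part of any of these cells in the IGFBP4 difference was not tested. A single probe set reads IGFBP4 on this array, so the size rests on that one.

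IGFBP5, a binding protein that attaches to extracellular matrix and is the other main substrate of PAPPA, averaged 6.17 ± 0.77 in large-follicle arrays and 5.39 ± 0.13 in small-follicle arrays (SD, n = 3 each). Its values were 7.02, 5.97 and 5.53 in large-follicle arrays, against 5.48, 5.24 and 5.46 in small-follicle arrays. The groups did not overlap, but large-follicle replicate 3 was only just above the small-follicle arrays and replicate 1 was far above them. The difference of 0.78 ± 0.32 did not pass (adjusted p = 0.164 by limma), and it was 0.36 without large-follicle replicate 1. That array also had the highest leukocyte marker mean, 5.30, and the highest mean of 4 theca markers, with 7.79, 7.36 and 7.14 in large-follicle arrays, against 7.14, 7.32 and 6.91 in small-follicle arrays. The theca markers did not move alike: STAR, a cholesterol carrier (6.92), and CYP17A1 (5.38) were highest of all arrays in large-follicle replicate 1. HSD3B1 was almost level in large-follicle arrays (9.57, 9.56 and 9.49) and highest in small-follicle replicate 2 (9.75). INSL3, a theca hormone, was lower in large-follicle replicate 1 (9.29) than in the other large-follicle arrays (9.60 and 9.35). With the leukocyte marker mean as a covariate the IGFBP5 difference was 0.23 ± 0.21. The part of theca cells in the difference was not tested.

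**Figure D3:**
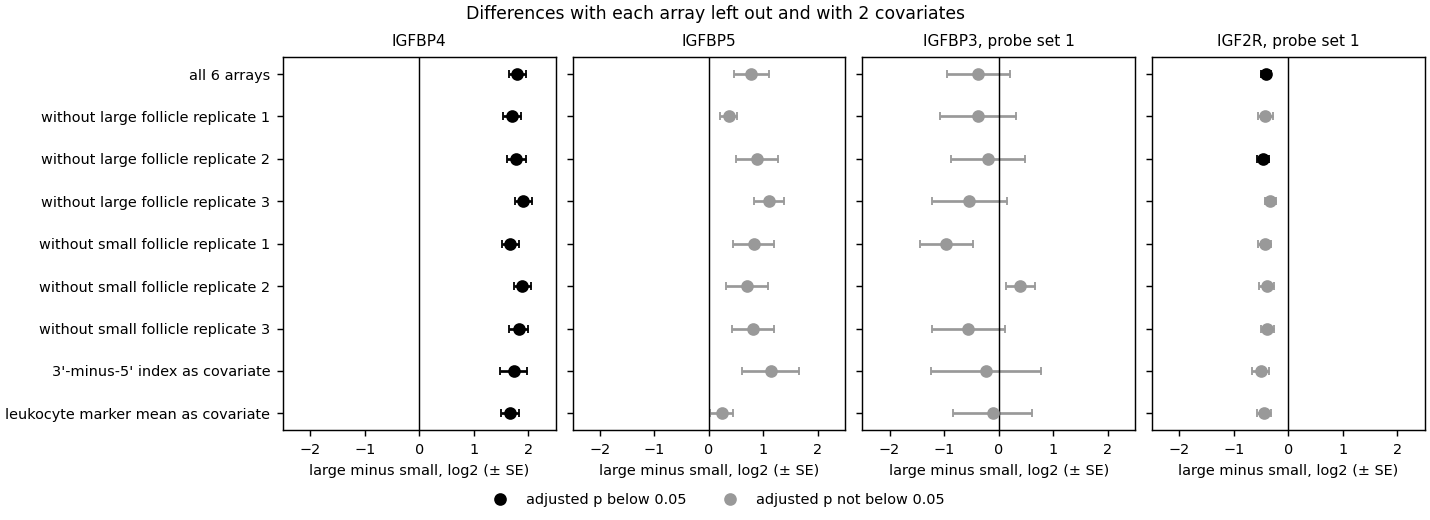
Large-follicle minus small-follicle difference ± SE in log2 units (horizontal axis) of IGFBP4, IGFBP5, IGFBP3 and IGF2R with all 6 arrays, with each array left out and with each of 2 covariates (rows); black marks an adjusted p below 0.05. IGFBP4 stays between 1.66 and 1.91. IGFBP5 runs from 0.23 with the leukocyte marker mean to 1.13 with the index and is 0.36 without large-follicle replicate 1. IGFBP3 changes side without small-follicle replicate 2, and IGF2R keeps its side but loses the call in most rows.

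IGFBP3, the main carrier of IGFs in blood, differed most between pools of the same group. Its brighter probe set read 7.48, 7.12 and 7.81 in large-follicle arrays, against 6.67, 9.39 and 7.47 in small-follicle arrays. Small-follicle replicate 2 was the highest of the 6 arrays and small-follicle replicate 1 the lowest, so the small-follicle group enclosed the whole large-follicle range. The SD within small-follicle arrays was 1.40, larger than in all but 0.0541% of the probe sets, where the median SD was 0.13. The second probe set ordered the arrays of each group the same way, with 7.24, 6.77 and 7.73 in large-follicle arrays, against 6.55, 8.80 and 7.26 in small-follicle arrays. Both probe sets thus read the high value of small-follicle replicate 2. The differences of -0.37 ± 0.58 and -0.29 ± 0.51 did not pass, their 95% intervals ran from -1.71 to 0.97 and from -1.45 to 0.87, and without small-follicle replicate 2 they were 0.40 and 0.34. In small-follicle replicate 2 the theca marker mean (7.32) was the highest of the small-follicle arrays, the leukocyte mean (4.23) and the smooth muscle mean (6.27) were the lowest of the 6 arrays, and the mean of 7 fibroblast and stroma markers (6.45) lay between the other small-follicle arrays (6.14 and 7.14). Their part in the IGFBP3 value was not tested.

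IGFBP2, a binding protein made by granulosa cells of small follicles in several species, also varied within both groups. It read 4.69, 5.51 and 5.52 in large-follicle arrays, against 5.81, 5.22 and 6.05 in small-follicle arrays. The groups overlapped through small-follicle replicate 2, and large-follicle replicate 1 was the lowest of all. The SDs, 0.48 in large-follicle and 0.43 in small-follicle arrays, were exceeded by 1.81% and 2.75% of all probe sets. The difference of -0.45 ± 0.27 did not pass (adjusted p = 0.34 by limma; 95% interval -1.07 to 0.17), and it was -0.18 without large-follicle replicate 1, -0.28 with the leukocyte mean fitted and -1.03 with the 3'-minus-5' index fitted. IGFBP2 and IGFBP5 are neighbours on 1 chromosome, as are IGFBP1 and IGFBP3, each pair with 0 protein-coding genes between them in the RefSeq annotation of the ARS-UCD2.0 assembly. In large-follicle replicate 1 IGFBP5 was at its highest value and IGFBP2 at its lowest, and in small-follicle replicate 2 both IGFBP3 and IGFBP1 (4.30) were at the highest value of the small-follicle group. The IGFBP1 probe set was dim (mean 4.20), and its 4.30 lay within the large-follicle range (4.12 to 4.43). Whether neighbours vary together was not tested.

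IGFBP6, a binding protein with a preference for IGF2, read 7.04, 7.15 and 6.55 in large-follicle arrays, against 6.60, 6.77 and 6.43 in small-follicle arrays. Large-follicle replicate 3 lay within the small-follicle range, and the difference of 0.31 ± 0.17 did not pass (adjusted p = 0.284 by limma). IGFBP1, known best as an insulin-regulated product of the liver, read 4.43, 4.12 and 4.35 in large-follicle arrays, against 4.11, 4.30 and 3.86 in small-follicle arrays. The groups overlapped at a low signal, and the difference was 0.21 ± 0.14, with a 95% interval of -0.11 to 0.53.

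PAPPA, the protease of IGFBP4, did not pass at either of its 2 probe sets by limma, and 0 of them had an unadjusted p under 0.05. The first read 4.22, 4.29 and 4.70 in large-follicle arrays, against 4.63, 4.43 and 4.41 in small-follicle arrays. The second read 4.10, 4.05 and 4.43 in large-follicle arrays, against 4.28, 4.06 and 3.93 in small-follicle arrays. Both were dim, below the median of all probe set means (5.67), with overlapping groups and large-follicle replicate 3 on top in each. The differences had opposite signs, -0.09 ± 0.14 and 0.10 ± 0.14, and 95% intervals of -0.41 to 0.24 and -0.21 to 0.42, so they did not reach the 1.80 seen for IGFBP4, though a dim probe set can understate a change. STC1, stanniocalcin-1, which inhibits PAPPA, was looked at after its values were seen. It read 9.85, 9.50 and 9.38 in large-follicle arrays, against 7.14, 8.85 and 8.63 in small-follicle arrays. All large-follicle arrays were higher, with small-follicle replicate 1 far below the rest, and the difference of 1.37 ± 0.40 did not pass (adjusted p = 0.0577).

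Of 60 listed genes of the wider pathway, 37 had a probe set with their symbol. Read from the brightest probe set of each gene, 5 rose, 1 fell and 31 did not pass. These 16.2% compare with 15.4% of all 9155 genes read the same way (7.08% higher and 8.30% lower), a share near the background, and the median difference was 0.13 for the list and 0.01 for all genes. Of the 10 members read this way 1 rose, IGFBP4, and 1 fell, IGF2R.

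Among the 9 measured extracellular partners 1 rose. This was GHR, the growth hormone receptor, which drives IGF1 production in the liver, at 6.12, 6.25 and 5.77 in large-follicle arrays, against 3.95, 5.07 and 5.08 in small-follicle arrays. The groups did not overlap, and the difference was 1.35 ± 0.29 (adjusted p = 0.0211 by limma), but it no longer passed when large-follicle replicate 1 (1.31) or 2 (1.24) was left out, with the leukocyte mean fitted (1.16) or with the 3'-minus-5' index fitted (0.71, adjusted p = 0.373). The other 10 GHR probe sets read -0.07 to 0.17 and did not pass, and 8 of the 11 were dimmer than the lower quartile. None of the 5 measured receptors and adaptors passed by limma, and 0 had an unadjusted p under 0.05 at the brightest probe set. INSR, the insulin receptor, read 8.56, 8.60 and 7.96 in large-follicle arrays, against 7.57, 7.76 and 8.34 in small-follicle arrays. Replicate 3 of the large follicles lay below replicate 3 of the small ones, and the difference of 0.48 ± 0.23 did not pass (adjusted p = 0.229). The next brightest INSR probe set read 0.44 ± 0.17 with an unadjusted p of 0.0337 by limma and did not pass either (adjusted p = 0.144). IRS1, IRS2 and FOXO1 were not analysed here, since no probe set had their single symbol.

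In the PI3K, AKT and FOXO branch 1 of 9 genes rose, GSK3B, a kinase that AKT inactivates. It read 6.75, 6.92 and 6.67 in large-follicle arrays, against 6.16, 6.47 and 6.21 in small-follicle arrays. The groups stood apart, the difference was 0.50 ± 0.12 (adjusted p = 0.0301 by limma), and a second probe set also read 0.50 but did not pass (adjusted p = 0.0819). The dimmest GSK3B probe set, with a mean of 2.44, read 0.07 and did not pass (adjusted p = 0.668). GSK3B did not pass once large-follicle replicate 1 (0.51) or 2 (0.43) or small-follicle replicate 1 (0.44) or 3 (0.47) was left out, nor with the index (0.44) or the leukocyte mean (0.53) fitted. PIK3CA, a catalytic subunit of PI3K, was called lower at its dimmer probe set (-0.45 ± 0.11, adjusted p = 0.033) and not at the brighter one (-0.10 ± 0.16).

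In the MTOR branch 2 of 8 genes rose and 1 fell. EIF4EBP1, which blocks the cap-binding factor EIF4E until MTOR phosphorylates it, read 9.47, 9.47 and 9.79 in large-follicle arrays, against 7.79, 8.09 and 8.20 in small-follicle arrays. The groups were far apart, and the difference of 1.55 ± 0.14 (adjusted p = 0.00107 by limma) held in every setting tried (1.35 to 1.64). With the index fitted it passed only just (1.35 ± 0.22, adjusted p = 0.0485). DDIT4, a stress-induced inhibitor of MTOR signalling, averaged 13.75 ± 0.06 in large-follicle arrays and 13.01 ± 0.15 in small-follicle arrays (SD, n = 3 each), a rise of 0.74 ± 0.11 (adjusted p = 0.00461), which did not pass with the index fitted (0.58, adjusted p = 0.119). RPS6KB1, the ribosomal S6 kinase that MTOR activates, read 7.38, 7.35 and 7.35 in large-follicle arrays, against 7.74, 8.34 and 7.92 in small-follicle arrays. It was lower in all large-follicle arrays, by -0.64 ± 0.15 (adjusted p = 0.0282), while its other probe set read -0.13 and did not pass. RPS6KB1 did not pass once large-follicle replicate 1 (-0.65), 2 (-0.64) or 3 (-0.64) or small-follicle replicate 2 (-0.47) or 3 (-0.68) was left out, nor with the index (-0.64) or the leukocyte mean (-0.61) fitted.

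In the MAPK branch 1 of 6 genes rose, MAP2K1, a kinase of the MAPK cascade. It read 8.90, 8.70 and 8.77 in large-follicle arrays, against 8.02, 8.06 and 8.14 in small-follicle arrays. The groups were well separated, and the difference was 0.72 ± 0.10 (adjusted p = 0.0036 by limma), or 0.73 with the index fitted, where it did not pass (adjusted p = 0.079).

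**Figure D4:**
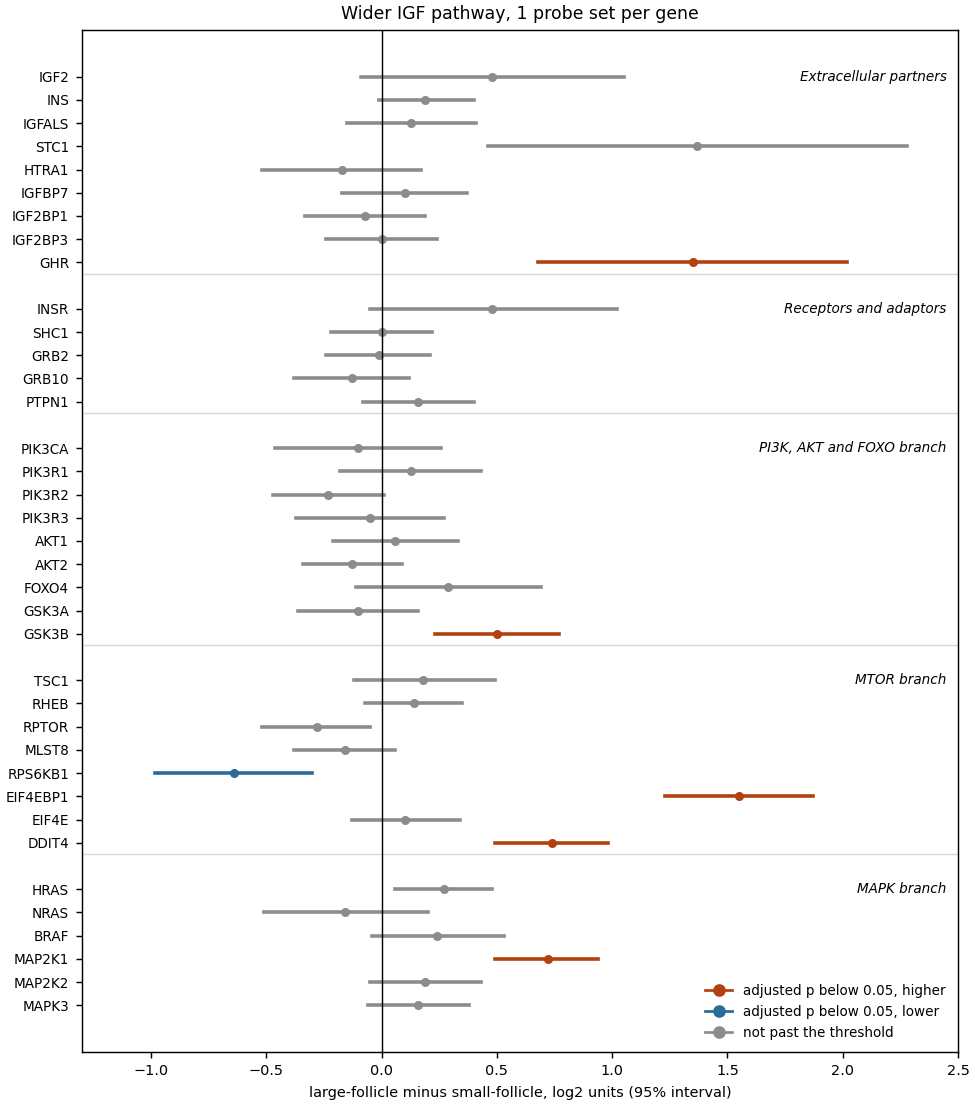
Large-follicle minus small-follicle difference in log2 units (horizontal axis) with the 95% interval for the 37 measured genes of the wider pathway, in 5 groups by role and with 1 probe set per gene. GHR, GSK3B, EIF4EBP1, DDIT4 and MAP2K1 were called higher (orange) and RPS6KB1 lower (blue), and most other intervals cross 0.

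The profile of IGFBP4 over the 6 arrays was compared with that of all other named genes by the root mean square difference of values centred on their mean, in log2 units. The closest were NT5E, the ecto-enzyme that makes adenosine from AMP, at 0.113, the copine CPNE8 at 0.121, the semaphorin SEMA6D at 0.139, CYP11A1, which makes pregnenolone from cholesterol, at 0.149, and TCN2, the transport protein of vitamin B12, at 0.18. NT5E read 8.44, 8.17 and 8.04 in large-follicle arrays, against 6.27, 6.86 and 6.37 in small-follicle arrays. As in IGFBP4, large-follicle replicate 1 was the highest and small-follicle replicate 1 the lowest array. CYP11A1 read 11.32, 11.35 and 11.32 in large-follicle arrays, against 9.24, 9.82 and 9.78 in small-follicle arrays. It shared the size of the step, 1.72 against 1.80, but not the order within the large-follicle group. The measure picks genes with a step of like size, so their differences of 1.59 to 1.72 describe the choice.

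**Figure D5:**
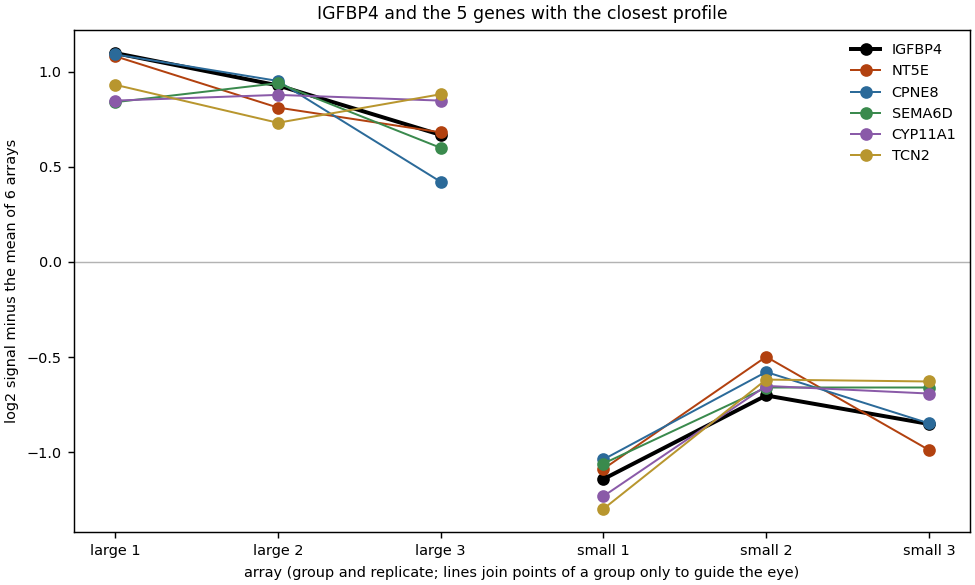
Log2 signal minus the mean of the 6 arrays (vertical axis) for IGFBP4 (black) and the 5 genes with the closest profile, by array (horizontal axis). In all 6 genes the large-follicle arrays lie above the mean and the small-follicle arrays below it, with small-follicle replicate 1 the lowest.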

How the data were processed

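The deposited values are log2 signals per probe set for 6 arrays, 3 per group, and the submitters' processing notes name RMA as the authors' method, without software or settings. Values ran from 1.80 to 14.39 and array medians from 5.64 to 5.68. The 112 control probe sets were left out, which leaves 24016, of which 13292 had 1 gene symbol, 86 several and 10638 none in the platform annotation. Gene IDs of 13263 matched RefSeq and changed 0 symbols. Within groups arrays correlated at 0.9927 to 0.9948, and across groups at 0.9817 to 0.9879 (Pearson).

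The test was limma's (version 3.58.1, R 4.3.3) on large-follicle minus small-follicle, by lmFit and eBayes without a block, 2-sided, with 8.28 total degrees of freedom and Benjamini-Hochberg adjusted p-values over the whole table. Intervals are 95% and from the same fit. RMA gives no detection call, so no filter was used, and array number limits the precision. The procedure was tested on simulated data. All probe sets of the members were reported. Where 1 probe set stands for a gene it is the one with the highest mean. Named pathway genes are those with a called probe set plus fixed genes, among them IGF2, INSR, IRS1, IRS2 and FOXO1; some genes of the list are not reported here. The 5 genes closest to the member with the smallest p were taken, without locus, reading frame and clone names. Members, lists and alternatives were chosen with earlier results of these data known. The alternatives were a replicate block, each array left out, 2 filters, 2 scalings, a trended robust prior, array weights, 2 covariates, probe set specificity, other thresholds and the mean of all probe sets of a gene. Figures were drawn with matplotlib 3.10.9 in python 3.11.15.

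Markers of other cells were counted with the same limma test. Of 4 theca and of 6 oocyte markers 0 passed (0 and 0 with an unadjusted p under 0.05), and of 7 fibroblast and stroma and of 3 red blood cell markers 0 passed (2 and 1 with an unadjusted p under 0.05). Of 6 endothelial markers 1 was lower, and of 5 smooth muscle markers 2 were higher.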

Additional observations from a re-analysis of the deposited data

How the results depend on the processing

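Over all 24016 probe sets 3094 were called, 1615 to 2477 with 1 array left out, 1964 with the replicate number as a block, 215 with the 3'-minus-5' index and 1426 with the leukocyte marker mean as a covariate, and 1063 at a threshold of 0.01. Array weights gave 4069 and a threshold of 0.10 gave 4504. Of the member probe sets 2 were called, 1 to 2 with 1 array left out, and 1, that of IGFBP4, with the replicate block, with either covariate and at 0.01. There were 3 with the median filter, quantile scaling and a threshold of 0.10, which added the brighter IGF1R probe set, and 3 with array weights, which added the second IGF2R probe set. For the wider pathway the genes called were 6, then 3 to 6 with 1 array left out, 1 with the index, 3 with the leukocyte mean, 3 at 0.01 and 3 with the mean of all probe sets of a gene. Deviations of same-numbered arrays of the groups correlated at 0.00, -0.05 and -0.34, and those of differently numbered arrays at -0.28 to 0.32. With 3 arrays per group such values cannot exclude pairs, and the labels do not say whether the numbers pair the pools. The main fit did not use the numbers. IGFBP4 held its call in 18 of 18 settings (adjusted p 0.000267 to 0.0458) and IGF2R in 9 of 18. The threshold of 0.10, counted among these, uses the main fit and so could not lose either call. The sign turned only where a difference was near 0 or rested on 1 array. IGF1 at its probe set 3 was -0.02 after quantile scaling, -0.0033 after median scaling and -0.02 to 0.03 with 1 array left out. IGF1R at its dimmer probe set was 0.03 with array weights, 0.09 with the index and -0.07 to 0.05 with 1 array left out. PAPPA at its first probe set was 0.03 with the index, 0.08 with the leukocyte mean and -0.24 to 0.005 with 1 array left out, and at its second -0.01 to 0.20. IGFBP3 ranged from -0.96 to 0.40 and from -0.78 to 0.34 with 1 array left out, the cause of the high small-follicle replicate 2 being not tested. The 3'-minus-5' index difference was -0.63 to -0.37 and that of the leukocyte marker mean 0.16 to 0.58 with 1 array left out.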
